A study of Homo sapiens with 8 samples.

Results

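The genes for the receptors of lysophosphatidic acid (LPA) and sphingosine 1-phosphate (S1P) were followed in A375 human melanoma cells kept with or without serum. The listed receptors are *LPAR1* to *LPAR6*, *S1PR1*, *S1PR2*, *S1PR3* and *S1PR5*. All 10 were found by Ensembl identifier among the 58051 genes of the deposited count files, 6 of them LPA receptors and 4 S1P receptors, and 9 had enough reads to be tested. RNA was taken from 4 wild-type lines, WT1 to WT4, each grown from a single A375 cell. At about 60% confluence each line was rinsed and kept for 12 h in DMEM medium with 10% fetal bovine serum (FBS) or in DMEM with 0% FBS, giving 4 serum and 4 serum-free libraries. Every line is 1 clone of 1 tumor cell line with 1 library in each medium, so the spread below is between clones. P-values with lines unpaired measure that spread alone. P-values with the line as a block, and those for differences among lines, measure how far clones depart from a common serum difference.

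LPA and S1P are small phospholipids that act outside the cell. Blood serum carries large amounts of both, bound to albumin and lipoproteins, and much of the rounding, contraction and stress-fiber formation that serum causes in cultured cells was traced to them. Autotaxin, encoded by *ENPP2*, makes LPA from lysophosphatidylcholine, and the sphingosine kinases make S1P inside cells, from which transporters export it. Their receptors cross the membrane 7 times and signal through heterotrimeric G proteins. *LPAR1*, *LPAR2* and *LPAR3* form 1 family with the S1P receptors, whereas *LPAR4*, *LPAR5* and *LPAR6* are closer to purine nucleotide receptors. Receptors that couple to the products of *GNA12* and *GNA13* activate RhoA and contraction, and those that couple to Gi lower cAMP and activate Rac and migration.

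The libraries held 29759279 to 73341551 reads assigned to genes, so that 1 read was worth between 0.0131 and 0.0352 CPM (read counts scaled to library size by TMM). The share of multiply aligned reads was highest in the serum libraries of WT1 (22.7%) and WT2 (16.8%), against 5.73% to 10.1% in the other libraries. The count files of WT4 carry another name, and its identity rests on the labels. All serum files are also numbered replicate 2 and all serum-free files replicate 1 in their names. What that number stands for is not stated, and if it marks a batch, batch and medium cannot be told apart. Of the melanocyte lineage markers, *MITF* (40.2 CPM with serum and 33.1 without, edgeR's adjusted p = 0.0496) and *S100B* (18.9 and 23.2) were present. *PMEL* (0.714 and 0.485), *MLANA* (0.953 and 1.01) and *DCT* (1.23 and 0.638) were low, *TYR* had at most 4 reads in a library, and *SOX10* had no counted read in any. Summed leukocyte markers stayed between 0.289 and 0.950 CPM, fibroblast markers between 5.46 and 9.57, keratinocyte markers between 11.7 and 21.7, mainly *KRT14* and with *KRT1* at 0, and endothelial markers between 13.6 and 48.0, mainly *KDR*. The part of other cell types in the receptor values was not tested, and in these bulk samples fewer expressing cells and less RNA per cell cannot be told apart.

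The start regions of the genes whose serum difference passed the test with lines unpaired or paired are printed first, because they let the receptors be compared in the DNA at an annotated start. Which starts these cells use was not tested. Each is RefSeq sequence of GRCh38.p14 from 250 bases before to 50 after the annotated start, read 5′ to 3′ on the gene's own strand. The table holds 1 start each for *LPAR6* and *S1PR1*, which lies inside the annotated gene and not at its outer end, so other starts of these genes are not shown. Capitals mark every match, on either strand, to 8 motifs. The cAMP response element was searched as TGACGTCA and the AP-1 site as TGANTCA. The FOXO site was searched as TGTTTAC, and the E-box of MYC and related factors as CACGTG. For the TEAD partners of YAP the letters were GGAATG, for the GC box bound by SP1 they were GGGCGG, and the CCAAT box is its own name. The last motif was the CArG box of serum response factor. An overlap of different motifs prints as 1 longer run of capitals.
LPAR2, chr19:19628171-19628470 (- strand): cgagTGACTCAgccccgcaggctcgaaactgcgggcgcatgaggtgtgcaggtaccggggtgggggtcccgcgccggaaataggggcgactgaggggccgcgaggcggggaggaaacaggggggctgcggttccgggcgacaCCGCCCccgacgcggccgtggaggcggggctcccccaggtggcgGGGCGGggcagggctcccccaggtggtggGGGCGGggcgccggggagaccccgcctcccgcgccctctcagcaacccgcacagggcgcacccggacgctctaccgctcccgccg
LPAR6, chr13:48413064-48413363 (- strand): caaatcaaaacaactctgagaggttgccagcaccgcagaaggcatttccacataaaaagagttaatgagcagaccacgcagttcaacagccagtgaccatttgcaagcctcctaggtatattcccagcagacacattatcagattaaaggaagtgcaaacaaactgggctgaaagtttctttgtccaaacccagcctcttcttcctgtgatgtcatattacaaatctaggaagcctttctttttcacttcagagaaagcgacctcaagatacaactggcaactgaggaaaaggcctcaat
S1PR1, chr1:101236769-101237068 (+ strand): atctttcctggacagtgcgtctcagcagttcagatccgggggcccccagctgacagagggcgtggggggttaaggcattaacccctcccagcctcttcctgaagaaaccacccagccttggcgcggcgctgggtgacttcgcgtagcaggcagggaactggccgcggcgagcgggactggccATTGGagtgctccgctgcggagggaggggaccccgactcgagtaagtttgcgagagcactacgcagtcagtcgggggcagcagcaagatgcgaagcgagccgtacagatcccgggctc
S1PR2, chr19:10231282-10231581 (- strand): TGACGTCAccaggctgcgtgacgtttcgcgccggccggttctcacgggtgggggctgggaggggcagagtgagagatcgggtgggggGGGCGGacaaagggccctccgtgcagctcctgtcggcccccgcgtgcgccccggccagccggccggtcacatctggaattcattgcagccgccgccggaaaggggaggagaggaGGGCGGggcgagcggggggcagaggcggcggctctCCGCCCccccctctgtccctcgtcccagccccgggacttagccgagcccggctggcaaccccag
S1PR5, chr19:10517916-10518215 (- strand): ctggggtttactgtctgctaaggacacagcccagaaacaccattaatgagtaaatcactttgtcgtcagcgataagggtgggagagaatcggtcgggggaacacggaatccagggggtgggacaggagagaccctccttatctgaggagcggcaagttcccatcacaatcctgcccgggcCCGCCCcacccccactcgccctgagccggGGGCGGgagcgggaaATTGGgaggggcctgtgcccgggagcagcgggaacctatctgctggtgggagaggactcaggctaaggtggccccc

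The *S1PR2* region opened with a cAMP response element, which 1.85% of 35116 RefSeq promoters of this length held, and had 3 GC boxes, held at least once by 45.0%. In *LPAR2* an AP-1 match (held by 7.71% of promoters) stood beside 3 GC boxes. *S1PR5* had 2 GC boxes and a CCAAT box, and *S1PR1* had a CCAAT box alone, a motif held by 34.6% of promoters. *LPAR6* held none of the 8 motifs. These windows also differed in CpG dinucleotides, with 37 in *LPAR2*, 31 in *S1PR2*, 23 in *S1PR1*, 14 in *S1PR5* and 3 in *LPAR6*, against a median of 14 over all promoters. No CArG box, the site of the serum-responsive factor SRF, fell in any of the 5 windows, and 1.29% of promoters held one. A match describes letters in the sequence and was not tested as a binding site.

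*S1PR2* and *LPAR3* were the most abundant receptor mRNAs in A375 cells. Levels of different genes were compared as RPKM, reads scaled to the length of the merged exons and to library size. *S1PR2* reached 11.2 ± 3.31 RPKM with serum and 18.5 ± 4.6 without (SD, n = 4 lines), and *LPAR3* reached 5.0 ± 0.93 and 5.65 ± 1.21. These 2 of the 10 receptor genes were above the median of 17425 expressed genes, which was 2.75 RPKM with serum and 2.93 without, in both media. *S1PR5* followed at 1.57 ± 0.37 and 2.14 ± 0.31 RPKM, *LPAR2* at 0.915 ± 0.179 and 1.98 ± 0.476, and *LPAR6* at 0.852 ± 0.155 and 1.35 ± 0.359. The other receptors, *LPAR1*, *S1PR1*, *LPAR4*, *S1PR3* and *LPAR5*, had means under 0.2 RPKM in each medium. In both media the ranges over lines separated *S1PR2* from *LPAR3*, *LPAR3* from *S1PR5*, and *LPAR6* from *LPAR1*, and no other neighbors in the order.

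**Figure D1:**
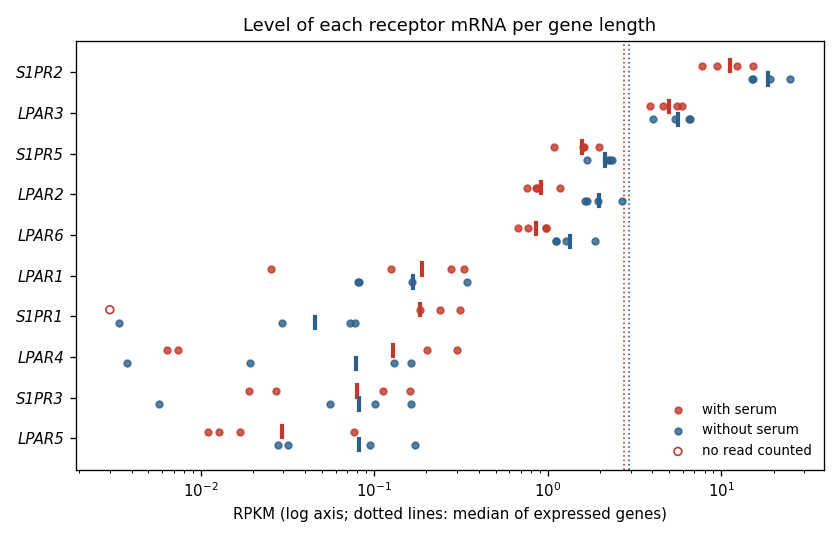
Level of each receptor mRNA in RPKM on a log axis, with 1 point per line, a short bar at the mean of 4 lines, red for serum and blue for serum-free, and dotted lines at the median of expressed genes. *S1PR2* (means of 11.2 and 18.5 RPKM) and *LPAR3* (5.0 and 5.65) lie to the right of the dotted lines, and the open circle marks the library of *S1PR1* with no read.

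*S1PR2* alone made up 54.9% ± 7.95 of the summed RPKM of the 10 receptor genes with serum and 61.2% ± 3.07 without, and *LPAR3* 25.2% ± 5.18 and 18.8% ± 2.34 (SD, n = 4). The 4 listed S1P receptors, without *S1PR4* (0.866 RPKM with serum and 2.05 without), summed to 13.0 ± 3.49 RPKM with serum and 20.8 ± 4.77 without, and the LPA receptors to 7.12 ± 1.14 and 9.30 ± 1.55. Both sums were higher without serum in 4 of 4 lines. The order of *LPAR2* and *LPAR6* with serum depended on the gene length used, since with the longest transcript *LPAR6* (1.23 RPKM) stood above *LPAR2* (1.07).

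The comparison of serum-free with serum libraries asked how the receptor mRNAs moved when the medium that carries their ligands was removed. *LPAR2* and *LPAR6* rose without serum, and none of the 9 tested receptor genes fell, in edgeR's quasi-likelihood test across all genes. Those 2 calls compare with 25.1% of the 17671 genes tested called in either direction, 11.1% higher and 14% lower. With the line as a replicate block 5 of 9 were called, *LPAR2*, *LPAR6*, *S1PR2* and *S1PR5* higher and *S1PR1* lower, against 45.7% of all genes (23.2% higher and 22.4% lower). Adding a GC correction to the block again gave 5, with *LPAR3* in place of *S1PR5*, against 46.5% (21.8% higher and 24.7% lower), and the correction without the block gave 2, against 27.2%. DESeq2 and limma's voom each called 3, with *S1PR2* added, against 31.4% and 26.6%. The unpaired share was thus near its background, and the paired one slightly above. The median log2 fold change of the 9 genes was 0.17, beside 0.03 over all genes tested. Higher values without serum in each of 4 lines were found for *LPAR2*, *LPAR6*, *S1PR2* and *S1PR5* among the tested receptor genes, and for 28.8% of all genes. No tested receptor gene was lower in each of 4 lines (26.6% of all genes) or had all its serum-free values below the serum values (15%).

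**Figure D2:**
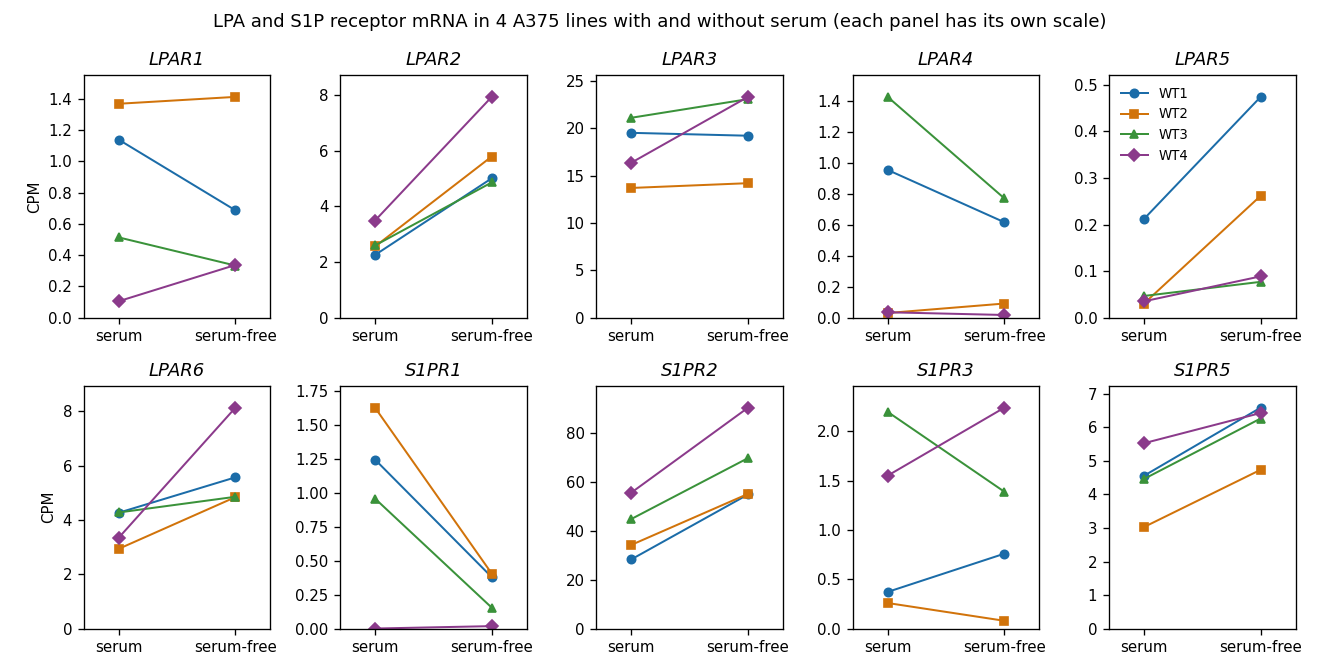
CPM of each receptor mRNA with and without serum, with 1 symbol and color per line and a line joining the libraries of the same clone; each panel starts at 0 and has its own scale. *LPAR2*, *LPAR5*, *LPAR6*, *S1PR2* and *S1PR5* slope upward in all 4 lines, *S1PR1* slopes downward in WT1 to WT3 from between 0.958 and 1.63 CPM, and *S1PR3* crosses.

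*LPAR2* (ENSG00000064547, chr19:19623655-19628220, minus strand) encodes an LPA receptor that couples to Gi, Gq and G12/G13 proteins. With serum it was at 2.25, 2.56, 2.59 and 3.49 CPM in WT1 to WT4, and without serum at 5.0, 5.78, 4.85 and 7.92 CPM. Every serum-free library was above every serum library, as for 12.6% of all genes tested. The means of 2.72 ± 0.53 and 5.89 ± 1.42 CPM (SD, n = 4) differed by 1.12 ± 0.21 (SE) on the log2 scale, with edgeR's adjusted p = 0.00527. Within lines the ratio ran from 1.87 to 2.27, beyond counting error in each. The call held in all 12 fits without a library or a line, and with the serum libraries of WT1 and WT2 both left out the difference was 0.96 without the block (edgeR's adjusted p = 0.0727) and 1.04 with it (0.000119). *LPAR2* has the highest GC content of the receptor transcripts (62.9%, against a median of 47.9% over tested genes), log2 fold changes over all genes ran with GC content (Spearman correlation of 0.358, across genes), and after a GC correction the difference was 0.87 (edgeR's adjusted p = 0.00405).

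*LPAR6* (ENSG00000139679, chr13:48389571-48444669, minus strand) encodes a receptor best known from inherited hair loss, and its exons lie in introns of the retinoblastoma gene *RB1* on the opposite strand. Its values were 4.27, 2.94, 4.28 and 3.35 CPM with serum and 5.57, 4.84, 4.85 and 8.14 without, in the order WT1 to WT4. The groups did not overlap, and WT4 moved the most, with a ratio of 2.43 against 1.14 in the line that moved least. The difference was 0.66 ± 0.21 (SE, log2), from 3.71 ± 0.67 to 5.85 ± 1.56 CPM (SD, n = 4), with edgeR's adjusted p = 0.0467. This call sat at the threshold and was lost in 11 of the 12 fits made without a library or line (edgeR's adjusted p from 0.0462 to 0.132), whereas with the line as a block it was 0.00525. With the serum libraries of WT1 and WT2 left out, the difference was 0.61 without the block (edgeR's adjusted p = 0.202) and 0.72 with it (0.0102). The library kit does not mark strand, so reads from *LPAR6* and from *RB1* introns cannot be told apart. *RB1* itself fell without serum, from 162 ± 11.1 to 123 ± 7.42 CPM (edgeR's adjusted p = 0.00478).

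*LPAR3* (chr1:84811602-84893206, minus strand), the LPA receptor at the highest level, did not pass the unpaired or paired test. It was at 19.5, 13.7, 21.1 and 16.4 CPM with serum and 19.2, 14.2, 23.1 and 23.3 without, with overlapping groups. Its log2 difference was 0.17 ± 0.18 (SE; edgeR's adjusted p = 0.520), and WT4, with a ratio of 1.42, was the single line beyond counting error. With both the block and the GC correction the estimate was 0.20 and edgeR's adjusted p 0.0450.

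The remaining LPA receptors were at low levels, in some lines near the limit of detection. *LPAR1*, the broadly expressed founding LPA receptor, was at 1.14, 1.37, 0.514 and 0.106 CPM with serum and 0.688, 1.41, 0.334 and 0.338 without (edgeR's adjusted p = 0.875), higher in 2 lines and lower in 2. *LPAR4*, which can also couple to Gs, had 36, 2, 61 and 1 reads with serum and 26, 7, 30 and 1 without (edgeR's adjusted p = 0.695). *LPAR5* had 8, 2, 2 and 1 reads with serum and 20, 20, 3 and 5 without. It failed the filter on low counts and was not tested, and its value was higher without serum in 4 of 4 lines, from 0.0304 to 0.212 CPM with serum and from 0.0771 to 0.474 without, with WT2 the single line beyond counting error.

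*S1PR2* (ENSG00000267534, chr19:10221433-10231331, minus strand) encodes the S1P receptor known for strong coupling to G12/G13, activation of RhoA and inhibition of Rac-driven migration. In WT1 to WT4 it was at 28.3, 34.2, 44.8 and 55.6 CPM with serum and at 54.9, 55.1, 69.7 and 90.4 CPM without. The groups overlapped only through WT4, whose serum value of 55.6 CPM exceeded the serum-free values of WT1 and WT2, and within every line the serum-free library was 1.56 to 1.94 times higher. Means were 40.7 ± 12.0 and 67.5 ± 16.7 CPM (SD, n = 4). The log2 difference of 0.73 ± 0.24 (SE) missed the threshold when lines were not paired (edgeR's adjusted p = 0.0573), and with the line as a block it was 0.74 ± 0.07 (edgeR's adjusted p = 9.37e-07). Adding the GC correction to the block gave 0.58 (edgeR's adjusted p = 8.67e-07). With the serum libraries of WT1 and WT2 left out, the difference was 0.42 without the block (edgeR's adjusted p = 0.295) and 0.66 with it (1.85e-05). *S1PR2* shares 83 exon bases, 2.28% of its merged exons, with a transcript of its neighbor *DNMT1*, which fell from 578 to 472 CPM (edgeR's adjusted p = 0.00638).

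*S1PR5* (ENSG00000180739, chr19:10512742-10517965, minus strand), a Gi- and G12/G13-coupled receptor studied mainly in natural killer cells and oligodendrocytes, stood at 4.56, 3.03, 4.46 and 5.53 CPM with serum and 6.59, 4.74, 6.27 and 6.43 without. The groups overlapped through WT2, low in both media, and WT4, high with serum. Its log2 difference was 0.45 ± 0.20 (SE) with edgeR's adjusted p = 0.122, and 0.47 with 0.00639 under the block. Block and GC correction together gave 0.26 and edgeR's adjusted p = 0.0767, so that the paired call was not kept. With the serum libraries of WT1 and WT2 left out, neither estimate passed, at 0.26 without the block (edgeR's adjusted p = 0.473) and 0.35 with it (0.251).

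*S1PR1* (ENSG00000170989, chr1:101236899-101242313, plus strand) encodes the Gi-coupled receptor that guides lymphocytes out of lymphoid organs and stabilizes vessels. It had 47, 107, 41 and 0 reads with serum and 16, 31, 6 and 1 without. In WT1, WT2 and WT3 it was lower without serum, at 0.305, 0.249 and 0.161 times the serum level, each beyond counting error. In WT4 the gene had 0 reads with serum, which allows up to 0.106 CPM, and no ratio was formed. The log2 difference over 4 lines was -2.0 ± 0.99 (SE) with edgeR's adjusted p = 0.174, and -1.97 with 0.000812 under the block. Without line WT4 the unpaired test gave edgeR's adjusted p = 0.00609. With the serum libraries of WT1 and WT2 left out, neither estimate passed, at -1.05 without the block (edgeR's adjusted p = 0.662) and -2.20 with it (0.0929).

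*S1PR3*, which like *S1PR2* couples to several G protein classes, moved in opposite directions among lines. It was at 0.371, 0.259, 2.2 and 1.55 CPM with serum and 0.759, 0.0785, 1.39 and 2.24 without. WT1 and WT4 were higher without serum and WT2 and WT3 lower, each beyond counting error, and the pooled log2 difference was 0.04 with edgeR's adjusted p = 0.983. Fold changes of the tested receptor genes in both designs are drawn in the plot of fold changes.

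**Figure D3:**
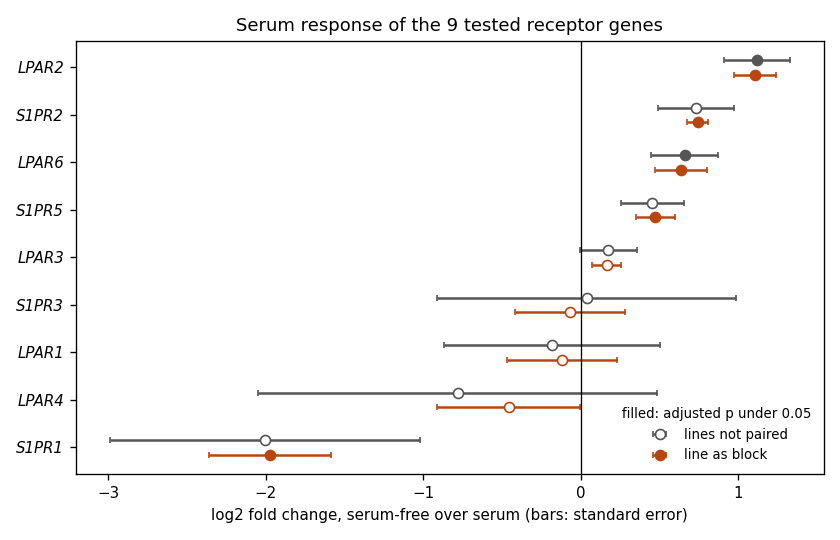
Log2 fold change of the 9 tested receptor genes, serum-free over serum, with standard errors, without pairing (gray) and with the line as a block (orange), filled where edgeR's adjusted p was under 0.05. *LPAR2* (1.12) and *LPAR6* (0.66) are filled in both designs, and *S1PR2*, *S1PR5* and *S1PR1* only with the block.

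The receptors also differed among the clones. With condition in the model, 6 of 9 receptor genes differed among the 4 lines, against 22.9% of all genes tested. *S1PR2* was lowest in WT1 (mean of both media 41.6 CPM), followed by WT2 (44.7) and WT3 (57.3), and highest in WT4 (73.0), with edgeR's adjusted p = 3.17e-05. *LPAR3* was lowest in WT2 (13.96 CPM) and highest in WT3 (22.1), with edgeR's adjusted p = 0.00799. The *LPAR3* call was lost without WT2 (edgeR's adjusted p = 0.559), without either WT2 library and without the WT3 serum-free library. The low-level receptors differed by more. *LPAR4* averaged 1.1 CPM in WT3 and 0.785 in WT1 but 0.0610 in WT2 and 0.0265 in WT4 (edgeR's adjusted p = 0.000151).

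*S1PR1* averaged 1.02 CPM in WT2, 0.812 in WT1 and 0.556 in WT3, and WT4 had 1 read in its 2 libraries (edgeR's adjusted p = 0.000929, and 0.273 without WT4). *S1PR3* ran the other way between clones, at 1.89 CPM in WT4 and 1.79 in WT3 against 0.565 in WT1 and 0.169 in WT2 (edgeR's adjusted p = 0.000503). *LPAR1* was 6.28 times higher in WT2 than in WT4 (edgeR's adjusted p = 0.0071, and 0.092 without WT2). *LPAR2*, *S1PR5* and *LPAR6* did not pass, with edgeR's adjusted p = 0.0562, 0.0567 and 0.314. Averaged over both media, WT4 held the highest *S1PR2* and *S1PR3* means of the 4 lines and the lowest *LPAR1*, *LPAR4* and *S1PR1* means. The order of lines was not the same in each medium, since *S1PR3* was highest in WT3 with serum and in WT4 without. A serum response that differs by line could not be tested with 1 library per line and medium.

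**Figure D4:**
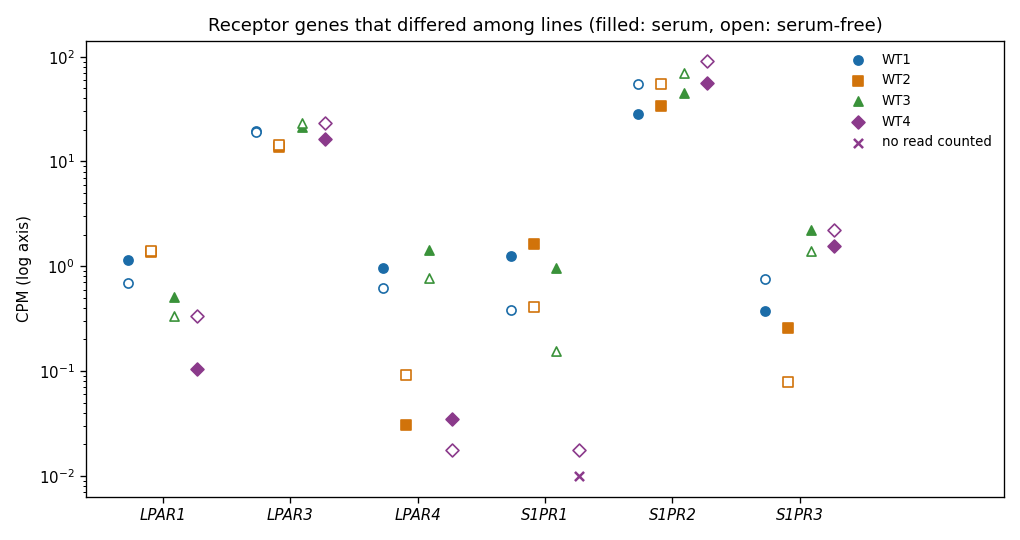
CPM on a log axis of the 6 receptor genes that differed among lines, with filled symbols for serum, open symbols for serum-free and a cross, placed at the foot of the axis, for the library with no read. *LPAR4* splits into WT1 and WT3 (means of 0.785 and 1.1 CPM) above WT2 and WT4 (0.0610 and 0.0265), and *S1PR1* is nearly absent from WT4.

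Around the receptors, 66 genes for related lipid receptors, ligand metabolism, G proteins, RhoA signaling, receptor regulation and known responses were listed, of which 55 were tested. Without pairing 9 rose and 3 fell, a share below the 25.1% of all genes called, with a median log2 fold change of 0.0008. With the block 16 rose and 8 fell, against 45.7% of all genes called, and with block and GC correction 13 rose and 17 fell, against 46.5%. Among related receptors *S1PR4*, the S1P receptor of lymphoid cells, rose by 1.26 on the log2 scale from 1.44 ± 0.63 to 3.41 ± 1.11 CPM (edgeR's adjusted p = 0.0219), with separate groups. That call held in 5 of 12 fits made without a library or line (edgeR's adjusted p up to 0.0896). The other 4 tested of 12 did not pass. Of the genes listed for LPA synthesis and breakdown 4 of 6 passed, and *ENPP2*, encoding autotaxin, did not, at 3.70 ± 1.33 and 4.2 ± 1.75 CPM (edgeR's adjusted p = 0.732). With the block *ENPP2* was 0.16 on the log2 scale (edgeR's adjusted p = 0.411), and with block and GC correction it passed as higher, at 0.35 (0.0464). *ACP6*, a mitochondrial LPA phosphatase, rose by 0.65 from 38.4 to 60.5 CPM (edgeR's adjusted p = 0.00593).

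The lipid phosphate phosphatases *PLPP1* (0.40) and *PLPP3* (0.22), which remove LPA and S1P at the cell surface, also rose on the log2 scale (edgeR's adjusted p = 0.0473 and 0.0472), each in 2 of 12 fits without a library or line, and *PLPP1* missed the threshold with GC correction (edgeR's adjusted p = 0.0628). *AGK*, the acylglycerol kinase that makes LPA in mitochondria, fell by 0.25 (edgeR's adjusted p = 0.0381), a call kept in 3 of those 12 fits. None of 9 genes for S1P synthesis, breakdown and transport passed in that test, and with the block *SPHK1* and *SGPP1* were higher and *ABCC1* lower (edgeR's adjusted p = 0.0086, 0.0316 and 0.00904), 3 of 9 against 45.7% of all genes. The *SPHK1* difference dropped from 0.37 to 0.08 when GC correction was added to the block (edgeR's adjusted p = 0.552). In that fit *SGPP1* was higher and *ABCC1*, *SPHK2* and the exporter gene *SPNS2* were lower (edgeR's adjusted p = 0.027 for *SPHK2* and 0.00119 for *SPNS2*). The same fit called 46.5% of all genes. Members that moved thus included both makers and removers of the ligands.

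Downstream of the receptors, *GNAI3* fell by 0.30 on the log2 scale and was the single G-alpha gene of 7 to pass (edgeR's adjusted p = 0.0248), against 25.1% of all genes. With GC correction it was -0.13 (edgeR's adjusted p = 0.0836), and 4 of 12 fits without a library or line kept the call. *GNA11* passed with that correction, at -0.36 (edgeR's adjusted p = 0.00131). With block and GC correction 1 G-alpha gene of 7 was higher and 4 were lower, against 21.8% and 24.7% of all genes. *RHOA* fell by 0.21 (edgeR's adjusted p = 0.043), from 566 to 489 CPM, in 2 of those 12 fits. With the block *RHOB* and the kinase gene *ROCK2* were also lower (edgeR's adjusted p = 0.00524 and 0.000109), each in 4 of 4 lines. The RhoA exchange factors *ARHGEF1* and *ARHGEF11*, which the G12/G13 proteins activate, rose by 0.32 and 0.28 (edgeR's adjusted p = 0.016 and 0.0363). They held in 5 and 3 of 12 fits without a library or line, and with GC correction they were 0.06 and 0.17 (edgeR's adjusted p = 0.411 and 0.0679). Among receptor regulators the arrestin *ARRB1*, which uncouples and internalizes active receptors, rose by 0.82 from 8.86 ± 1.29 to 15.6 ± 2.27 CPM (edgeR's adjusted p = 0.00402). *RGS3* and *RGS12*, which speed the shut-off of G-alpha subunits, rose by 0.47 and 0.45 (edgeR's adjusted p = 0.013 and 0.0112). With GC correction *RGS3* was 0.27 and lost its call (edgeR's adjusted p = 0.165), and *RGS12* was 0.28 (0.034). The receptor kinase gene *GRK5* was higher with the block (edgeR's adjusted p = 0.00965) but not with block and GC correction (0.0757).

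None of the 10 response genes of LPA and S1P passed without pairing, against 25.1% of all genes. With the block *EGR1*, *SRF* and *TAGLN* were higher and *CCN1* and *ANKRD1* lower without serum, 5 of 10 against 45.7% of all genes. With GC correction added to the block *SRF* was -0.01 (edgeR's adjusted p = 0.895) and *ANKRD1* missed the threshold (edgeR's adjusted p = 0.125). *AMOTL2* passed there as lower, at -0.39 (edgeR's adjusted p = 0.0216). That fit called 2 of the 10 higher and 2 lower, against 21.8% and 24.7% of all genes. *CCN1*, a YAP target, was at 139 ± 48.2 CPM with serum and 73.8 ± 36.1 without, lower in 4 of 4 lines (edgeR's adjusted p = 0.209, and 0.00281 with the block). *EGR1*, an immediate early gene, was at 14.8 ± 7.86 and 35.7 ± 25.4 CPM, higher in 4 of 4 lines (edgeR's adjusted p = 0.134, and 7.29e-07 with the block).

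**Figure D5:**
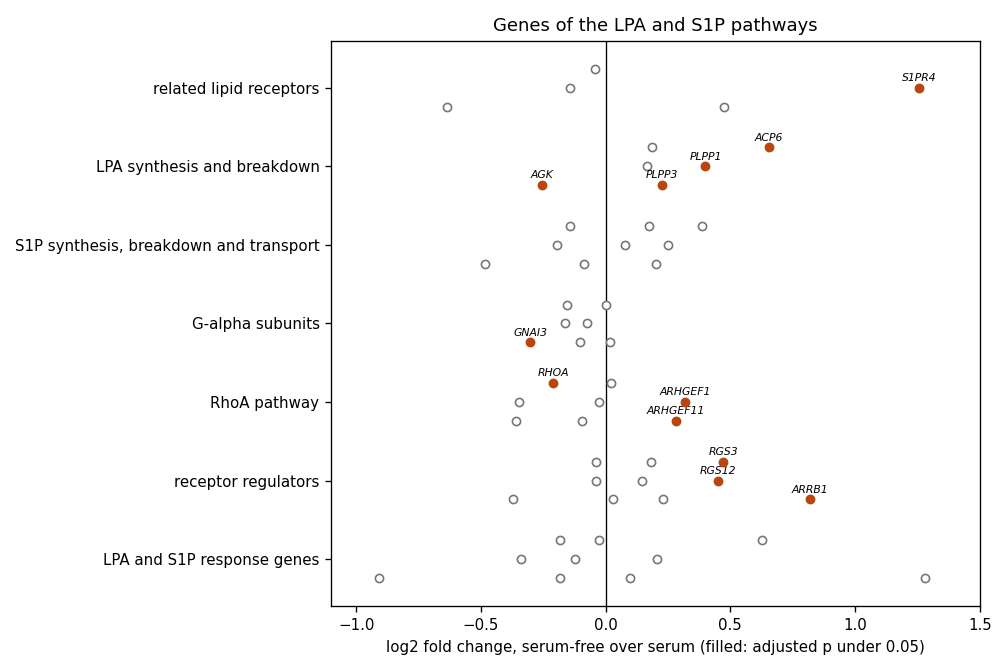
Log2 fold change, serum-free over serum, of the 55 tested genes around the receptors, 1 point per gene and 1 row per list, filled and named where edgeR's adjusted p was under 0.05. *S1PR4* (1.26) and *ARRB1* (0.82) lie farthest to the right of the named genes, and *GNAI3* (-0.30) farthest to the left.

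The genes whose log2 CPM followed a receptor most closely over the 8 libraries are given as a description, for receptors averaging 200 counts or more, among 10764 protein-coding genes. The libraries share their lines and media, which can raise any correlation. *LPAR2* was closest to *RNPEPL1* (r = 0.99) and *SCRN2* (0.99), *S1PR2* to *PLIN3* (0.99) and *CYP27A1* (0.99), and *S1PR5* to *PKNOX2* (0.99) and *RTL6* (0.97). *LPAR6* was closest to *PPP1R21* (0.98) and *C5orf24* (0.97), and *LPAR3* to *TAF4B* (0.95) and the mitochondrial gene *MT-CO1* (0.94).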

How the data were processed

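RNA depleted of ribosomal RNA was sequenced on a HiSeq from unstranded NEBNext Ultra libraries. The authors deposited raw read counts per Ensembl gene and library, and the submitters' processing notes name cutadapt, TopHat2 2.0.11, HTSeq and GRCh38. The annotation release and strand setting are not given in the sources used here, and reads without a feature are listed at 0 in every file, so whether intronic reads were counted is not known. Genes passing filterByExpr, with TMM library scaling, entered a test across 17671 genes with edgeR 4.0.16 in R 4.3.3 (glmQLFTest, Benjamini-Hochberg adjustment, threshold 0.05). The study's methods state no block, so the main design had none. Libraries of 1 line deviated together (r of 0.40 to 0.60, other lines at most 0.13), and the line is the same cells, so the line number pairs them. Gene lengths and GC content came from GENCODE 44 lifted to GRCh37, another build than those notes name, and start regions and positions from RefSeq GRCh38.p14, with 10 of 10 receptor genes matched. The paper's methods name GRCh37, under its UCSC name, for the alignment, so which build the counts rest on is not settled here. GC content was corrected by a lowess fit (span 0.3) per library. Line ratios have exact 95% binomial intervals, which cover counting error only, and a count of 0 was read as up to 3. Alternatives were the block, DESeq2 1.42.0, limma 3.58.1 (voom), other scalings and filters, and libraries or lines left out. Named genes were all receptors, pathway genes past the threshold, genes overlapping a receptor gene, and for each well-counted receptor the 2 genes most like it. *ENPP2*, *SPHK1*, *SGPP1*, *ABCC1*, *SPHK2*, *SPNS2*, *GNA11*, *RHOB*, *ROCK2*, *GRK5* and the response genes are outside that rule and were picked with their values in view. Members and lists were chosen with earlier results of these data known. The tests were tried on simulated data. No per-sample column was left unused.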

Additional observations from a re-analysis of the deposited data

Results flagged for a closer look

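The *LPAR5* value of the serum library of WT1, 0.212 CPM, stood apart from the other serum libraries, which lay between 0.0304 and 0.0467 CPM. It rests on 8 reads. It was the 1 value to stand apart among 20 sets of 4 libraries searched, where chance gives about 1.

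*S1PR3* moved in opposite directions among lines. Its serum-free level was 2.04 times the serum level in WT1 (95% interval 1.06 to 4.15) and 1.44 times in WT4 (1.02 to 2.09), but 0.304 times in WT2 (0.0980 to 0.807) and 0.631 times in WT3 (0.443 to 0.892). The intervals cover counting error only, and with 1 library per line and medium the difference among lines was not tested.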

How the results depend on the processing

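The number of receptor genes called between media was 2, and 5 with the replicate block, with the block and GC correction, and with the block and any line left out. It was 3 with DESeq2, voom, upper-quartile scaling or protein-coding genes only, and 3 of 5 tested with at least 10 counts in every library. Of these, upper-quartile scaling called less than the main fit's 25.1% of all genes and the others more. It was 1 to 4 without a library or line, where 8 were tested without WT1 or WT3 and 9 otherwise. The count of 4 came without the WT4 serum library, when *S1PR1*, *S1PR2* and *S1PR5* joined *LPAR2*. That fit called more than 25.1% of all genes, and each fit with a count of 1 called less. With the block, the share was below 45.7% without WT1, WT2 or WT3 and above it without WT4, while the count stayed 5. In alternatives chosen after the data were seen, it was 0 of 10 without the serum libraries of WT1 and WT2 and 3 with the block there. Those fits called 5.88% and 22.8% of all genes. *LPAR2* was called in every fit but the one with those 2 serum libraries left out and no block (0.96, edgeR's adjusted p = 0.0727). *S1PR2* was called in 7 of 10 alternatives and 2 of 12 fits without a library or line, and edgeR's adjusted p for it was 0.174 without the count filter.

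Pathway calls numbered 12, and 24 with the replicate block, 30 with block and GC correction and 8 without a filter. They numbered 1 (without WT3) to 17 (without WT4) when a library or line was left out, and 2 without the 2 serum libraries. With the block they numbered 18, 21 and 29 without WT1, WT2 or WT4. The share of all genes called moved as well. It was below the main fit's 25.1% without a filter, without WT3 and without the 2 serum libraries, and above it without WT4. With the block it was below 45.7% without WT1 or WT2 and above it without WT4. These counts alone thus do not separate a change in the pathway genes from one in the whole fit. Line differences were called for 6 receptor genes, for 2 with at least 10 counts in every library, where 5 were tested, and for 4 without WT2 or its serum-free library. The share of all genes called was also below the main 22.9% without WT2 or its serum-free library. With at least 10 counts in every library it was above 22.9%. The 2 receptor genes above the median level stayed 2 under each length and scaling tried.

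Among the receptor genes and the pathway genes called without pairing, directions reversed only for 3 receptor genes that were not called. *LPAR1* ran from -0.82 to 0.24 in fits without a library or line, and reached 0.13 and 0.0030 with the block and without WT1 or WT3, and 1.11 and 0.23 (block) without the 2 serum libraries. *LPAR4* ran from -1.42 to 0.093, the latter without the WT3 serum library. *S1PR3* reached -0.067 with the replicate block, -0.11 with block and GC correction, -0.013 with GC correction, -0.28 with voom, -0.58 to 0.67 without a library or line, -0.36 and -0.35 with the block and without WT1 or WT4, and -0.77 and -0.074 (block) without the 2 serum libraries. The cause was not tested. Depth limits *LPAR4*, *LPAR5* and *S1PR1*, where single libraries held 0 to 2 reads.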
